A study of Mus musculus with 6 samples.

Results

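The 38 Hox cluster genes listed here were followed across 6 stable lines of ZHBTc4 mouse embryonic stem cells. ZHBTc4 is an engineered line in which the only active Oct4 gene is a transgene that tetracycline switches off, so that cells kept in tetracycline depend on whatever POUV protein is supplied in its place. Members were chosen by name: 10 genes of the HoxA cluster, 10 of HoxB, 9 of HoxC and 9 of HoxD, found through the RefSeq accession of each array probe. All 38 had a probe, 42 probes in all, among 20972 genes that could be named in this way on the array.

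LcPOU5F3 lines (clones 1 and 2) carried POU5F3 of the coelacanth, LcPOU5F1 lines (clones 4 and 5) carried its POU5F1, and mOct4 lines (clones 1 and 2) carried mouse OCT4. All 6 lines shared the ZHBTc4 background, 2 µg/mL of tetracycline, selection in 1 µg/mL of puromycin from day 2 after electroporation, and picking of colonies at day 9, on gelatin-coated dishes with LIF and serum. Each rescue gene sat in a linearised pCAG-IP plasmid, whose CAG promoter is active in most cell types and is not the promoter of the mouse gene, and each line grew from 1 picked colony. The 2 clones of a group are therefore separate transfectants of the same construct, and p-values measure the spread between such clones.

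Hox genes encode homeodomain transcription factors that set position along the body axis. They lie in 4 clusters, HoxA to HoxD, and are numbered by paralog group: low-numbered genes are used anteriorly and early, high-numbered genes posteriorly and late. In mouse embryonic stem cells the clusters are held at low activity under Polycomb marks, and retinoic acid, Wnt and FGF signals, together with CDX factors, are known to open them during differentiation.

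Signals are given as log2 of the processed intensity minus the array's own 75th percentile, so 0 is the level of a fairly bright probe and each unit is a doubling. A probe was counted as measured where the scanner software called it well above background. The lowest level so called was -2.37 and -3.91 in LcPOU5F3 clones 1 and 2, -2.69 and -2.39 in LcPOU5F1 clones 4 and 5, and -3.79 and -3.59 in mOct4 clones 1 and 2, so the arrays did not reach equally low. No spot was saturated. The array of mOct4 clone 2 was on slide 2 and the other 5 were on slide 1. The spread between clones, as the median SD over the 14590 genes tested, was 0.23 for LcPOU5F3, 0.15 for LcPOU5F1 and 0.11 for mOct4. As a check of the labels, the mouse Pou5f1 probe read -3.19 and -5.93 in LcPOU5F3 clones and -4.77 and -4.04 in LcPOU5F1 clones. It was well above background in none of these 4. In mOct4 clones it read -1.75 and -1.47 and was measured on both arrays, though it was dim there too. The difference from mOct4 lines did not pass the test described below (limma, adjusted p = 0.0701 for LcPOU5F3 and 0.262 for LcPOU5F1). The check is thus a limited one.

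Most Hox genes were dim. Of the 38, 14 were well above background on no array: Hoxa2, Hoxa5, Hoxb1, Hoxb2, Hoxb5, Hoxb7, Hoxb8, Hoxc5, Hoxc11, Hoxd1, Hoxd3, Hoxd10, Hoxd12 and Hoxd13. Only Hoxa4 and Hoxa7 were measured on all 6 arrays. The number of Hox genes measured was 13 and 22 in LcPOU5F3 clones 1 and 2, 6 and 3 in LcPOU5F1 clones 4 and 5, and 16 and 14 in mOct4 clones 1 and 2. Of all 20972 named genes, 60.4% and 67.8% were measured in LcPOU5F3 clones, 62.7% and 58.9% in LcPOU5F1 clones, and 70.6% and 70.6% in mOct4 clones.

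These counts depend on each array's lowest level, so a common line was also used, the highest of the 6 lowest levels. Above -2.37 there were 14 and 14 Hox genes in LcPOU5F3 clones, 5 and 3 in LcPOU5F1 clones, and 4 and 4 in mOct4 clones. As shares of the 38 these are 36.8% and 36.8% in LcPOU5F3 clones, 13.2% and 7.89% in LcPOU5F1 clones, and 10.5% and 10.5% in mOct4 clones. Over all named genes the shares above that line were 62.1% and 56.6% in LcPOU5F3 clones, 60.7% and 60.7% in LcPOU5F1 clones, and 58.6% and 59.4% in mOct4 clones. On the common line both LcPOU5F3 arrays held more Hox genes than any of the other 4 arrays, while the lead of mOct4 over LcPOU5F1 in the plain counts was not seen.

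**Figure D1:**
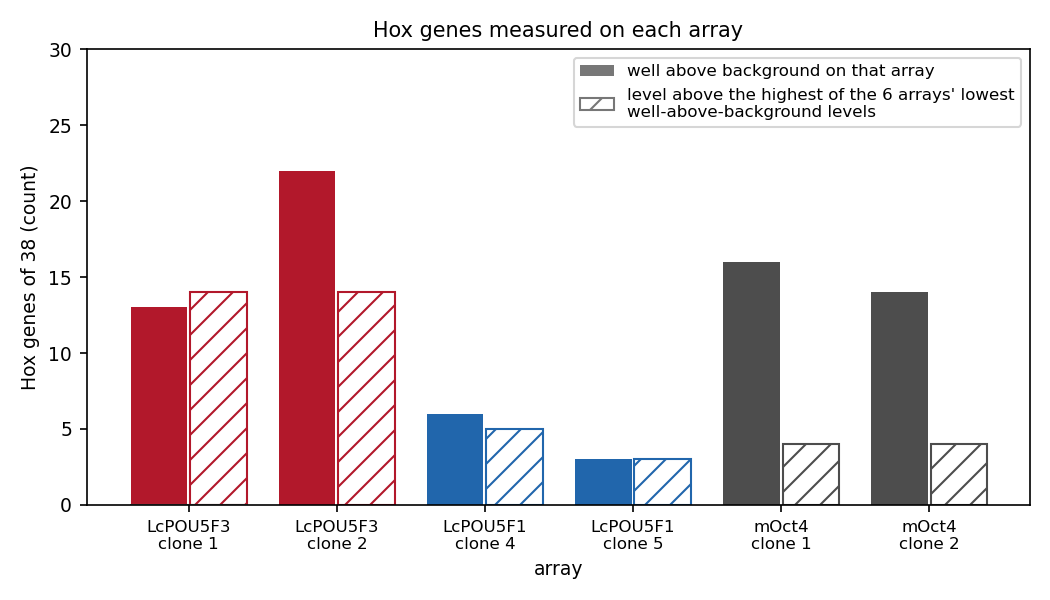
Number of the 38 Hox genes on each array (x axis: array, LcPOU5F3 then LcPOU5F1 then mOct4; y axis: count). Filled bars are genes well above background on that array and hatched bars are genes with a level above -2.37, which were 14 in each LcPOU5F3 clone and at most 5 in any other clone.

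By cluster, genes measured on at least 1 array numbered 8 of 10 in HoxA, 5 of 10 in HoxB, 7 of 9 in HoxC and 4 of 9 in HoxD. By paralog number they were 2 of 7 for groups 1 to 3, 10 of 15 for groups 4 to 8, and 12 of 16 for groups 9 to 13. The share measured was lowest for the most anterior genes, a description with no test. A gene entered the test only if it was measured on both arrays of at least 1 group. This left 17 of the 38, with 6 in HoxA, 4 in HoxB, 6 in HoxC and 1 in HoxD. Since a gene bright in 1 group only could pass through that group, the counts below are given against the same counts over all genes tested. Hoxb4, Hoxc8, Hoxc9 and Hoxd8 entered through LcPOU5F3 lines alone, and Hoxa6, Hoxb6, Hoxc4 and Hoxc12 through mOct4 lines alone. No Hox gene entered through LcPOU5F1 lines alone. The filter thus favoured Hox genes high in LcPOU5F3 or in mOct4 lines over those high in LcPOU5F1 lines. The share over all genes does not correct for this.

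**Figure D2:**
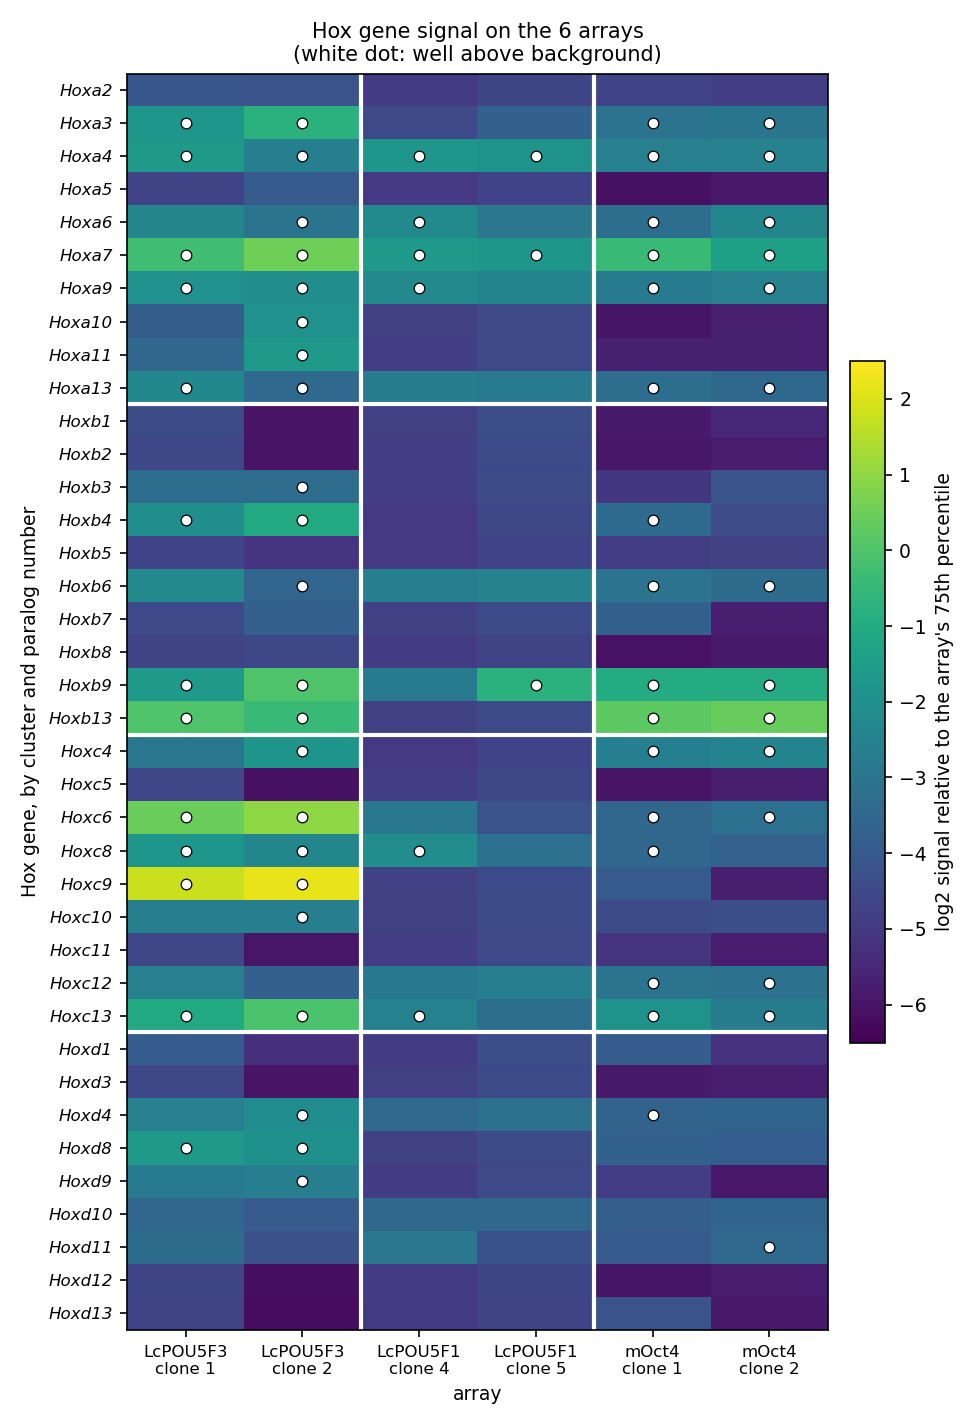
Level of each of the 38 Hox genes (rows, by cluster and paralog number) on the 6 arrays (columns), coloured by log2 signal relative to the array's 75th percentile. White dots mark signals well above background; Hoxc9 and Hoxc6 are brighter in the LcPOU5F3 columns than in the others, and Hoxb13 has no dot in the LcPOU5F1 columns.

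The first comparison set LcPOU5F3 lines against mOct4 lines, and asks whether the coelacanth protein of the POU5F3 type, once it has replaced OCT4, leaves the Hox clusters in the same state. Of the 17 Hox genes tested, 6 were higher in LcPOU5F3 lines (Hoxa3, Hoxa9, Hoxb4, Hoxc6, Hoxc9 and Hoxd8), 0 were lower and 11 did not pass. The test was limma's moderated test with Benjamini-Hochberg adjustment over all 14590 genes, called under 0.05, and 23.5% of those genes passed it in either direction, 11.8% on the higher side. An unadjusted p under 0.05 was reached by 9 of the 17, or 52.9%, against 40.2% of all genes tested. The median log2 difference was 0.65 over the 17 Hox genes and -0.09 over all genes tested, with 15 of the 17 above 0. With no filter the medians were 0.58 over all 38 Hox genes and 0.058 over all genes. In RNA from whole cultures, a change in the number of cells that express a gene and a change in RNA per cell cannot be told apart.

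Hoxc9, a thoracic-level gene that helps set motor neuron identity, had the largest difference of the 17. Its level was 1.77 and 2.19 in LcPOU5F3 clones 1 and 2, against -3.97 and -5.74 in mOct4 clones 1 and 2, where it was well above background on neither array. The groups lay far apart, and the larger scatter was among the unmeasured mOct4 values. Because mOct4 has only a bound, the difference is given as at least 51.1-fold: on each mOct4 array the probe's own level or the array's lowest measured level was taken, whichever was higher, and the LcPOU5F3 mean was set against their mean. All ratios written "at least" below were made in this way and hold for this background correction only. The fitted log2 difference was 6.84 ± 0.59 (SE, n = 2 clones each), with an adjusted p of 0.00607 in limma. The bound holds for this background correction only: the fitted ratio was 15.2-fold with normexp and 20.4-fold with a common floor, both of which raise dim signals by construction.

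Hoxc6, also used at thoracic levels and also in the HoxC cluster, read 0.45 and 0.99 in LcPOU5F3 clones, against -3.53 and -3.21 in mOct4 clones. It was measured on all 4 of these arrays and the groups did not overlap. LcPOU5F3 was 17.1-fold higher, a log2 difference of 4.09 ± 0.46 (SE, n = 2 each; limma, adjusted p = 0.00887). It was 5.95-fold with normexp and 8.52-fold with a common floor. Hoxd8, a HoxD gene of the middle paralog groups, read -1.67 and -1.97 in LcPOU5F3 clones, against -3.70 and -3.80 in mOct4 clones, where it was not measured. It was at least 3.54-fold higher in LcPOU5F3 lines (adjusted p = 0.00672 in limma), against 1.69-fold with normexp and 1.46-fold with a common floor.

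The other 3 genes moved less or varied more between clones. Hoxb4, known for expanding blood stem cells when it is overexpressed, read -2.09 and -1.02 in LcPOU5F3 clones, against -3.36 and -4.36 in mOct4 clones, of which clone 1 alone was measured. Its fitted log2 difference of 2.31 (limma, adjusted p = 0.0311) rests in part on the unmeasured clone. With a common floor it was 0.82 and did not pass (limma, adjusted p = 0.213), and with normexp it was 0.93. Hoxa3, needed for the thymus and parathyroid, read -1.77 and -0.76 in LcPOU5F3 clones, against -3.09 and -3.01 in mOct4 clones, a 3.44-fold difference (limma, adjusted p = 0.0390). For Hoxa3 too the call was lost with a common floor, at 2.15-fold (limma, adjusted p = 0.108), and the difference was 1.96-fold with normexp. In both genes LcPOU5F3 clone 2 was the higher clone.

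Hoxa9, a posterior gene active in blood progenitors, showed the smallest of the 6 differences. It read -1.95 and -2.08 in LcPOU5F3 clones, against -2.76 and -2.58 in mOct4 clones, a 1.57-fold difference (limma, adjusted p = 0.0406) that did not pass with normexp (limma, adjusted p = 0.240). A second probe for Hoxa9 that also passed the filter gave a log2 difference of 0.54, in the same direction.

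These calls rested on few clones. Leaving out mOct4 clone 1, or mOct4 clone 2 (the only array on slide 2), left Hoxc9 alone of the 6, with adjusted p-values of 0.0483 and 0.0462 in limma. Without LcPOU5F1 clone 4 or without clone 5, which lend their spread to the fit, Hoxc6, Hoxc9 and Hoxd8 passed together with Hoxc8. Without LcPOU5F3 clone 1, Hoxa9 was lost, Hoxc13 was higher and Hoxc12 lower. Without LcPOU5F3 clone 2, Hoxc6, Hoxc9 and Hoxd8 passed together with Hoxa4, Hoxa13 and Hoxb6.

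**Figure D3:**
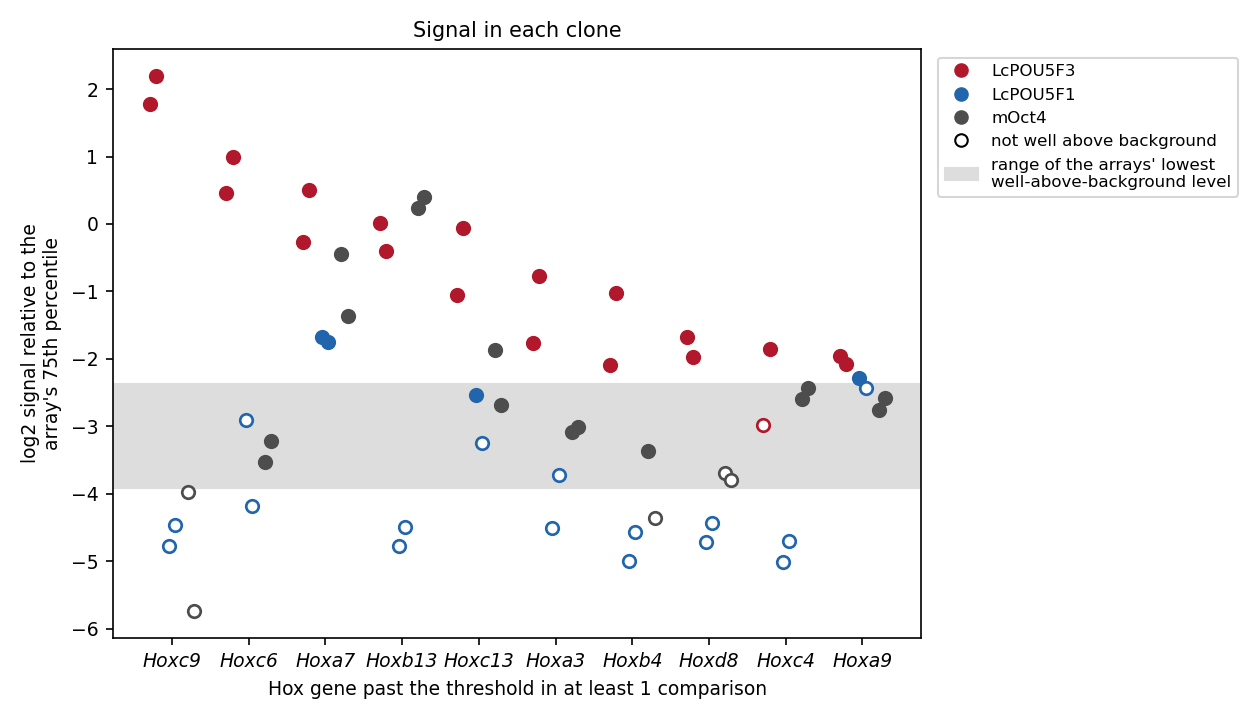
Level of the 10 Hox genes past the threshold in at least 1 comparison, 1 point per clone (y axis: log2 signal relative to the array's 75th percentile). Colours are the rescuing proteins, open points are not well above background, and the grey band spans the arrays' lowest measured levels, from -3.91 to -2.37; Hoxc9 and Hoxc6 in LcPOU5F3 lie above all points of the other groups.

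LcPOU5F3 and LcPOU5F1 are paralogs from the same fish, and the second comparison set them against each other. It uses the same LcPOU5F3 arrays as the first. Of the 17 Hox genes tested, 9 were higher in LcPOU5F3 lines (Hoxa3, Hoxa7, Hoxb4, Hoxb13, Hoxc4, Hoxc6, Hoxc9, Hoxc13 and Hoxd8), 0 were lower and 8 did not pass. Over all genes tested 20.6% passed in either direction and 9.99% on the higher side. The same 9 had an unadjusted p under 0.05, 52.9% against 39.5% of all genes tested. The median log2 difference was 1.83 over the 17 Hox genes and -0.21 over all genes tested, but 0.52 over all 38 Hox genes with no filter, where it was -0.35 over all genes.

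In LcPOU5F1 lines Hoxc9 read -4.77 and -4.46 and Hoxc6 read -2.91 and -4.19, with neither measured on either array. LcPOU5F3 lines, at the levels given above, were at least 23.0-fold higher in Hoxc9 (limma, adjusted p = 0.00670) and at least 9.58-fold higher in Hoxc6 (limma, adjusted p = 0.00897), against a fitted 5.34-fold in Hoxc6 with normexp. Hoxd8 read -4.72 and -4.44 in LcPOU5F1 clones and was at least 1.65-fold higher in LcPOU5F3 lines (limma, adjusted p = 0.00436). Hoxa3 read -4.51 and -3.72 and Hoxb4 read -4.99 and -4.56 in LcPOU5F1 clones. LcPOU5F3 lines were at least 2.42-fold higher in Hoxa3 (limma, adjusted p = 0.0163) and at least 1.98-fold higher in Hoxb4 (limma, adjusted p = 0.0177). These bounds too hold for this background correction only. With a common floor the fitted ratios were 20.4-fold in Hoxc9, 8.52-fold in Hoxc6 and 1.46-fold in Hoxd8, each under its bound. Those of Hoxa3 and Hoxb4 were also under theirs, at 2.15-fold and 1.76-fold. With normexp the ratios were 23.2-fold in Hoxc9, 1.68-fold in Hoxd8, 2.015-fold in Hoxa3 and 2.93-fold in Hoxb4. In all 5 genes no LcPOU5F3 clone overlapped a LcPOU5F1 clone. The 5 were picked because they passed, so this lack of overlap adds no support to the calls.

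Hoxb13, the most posterior HoxB gene, known from the prostate and the tail end of the axis, followed another pattern. It read 0.0091 and -0.40 in LcPOU5F3 clones and -4.78 and -4.49 in LcPOU5F1 clones, where it was not measured. LcPOU5F3 lines were at least 5.08-fold higher (limma, adjusted p = 0.00289), against a fitted 3.53-fold with normexp and 4.52-fold with a common floor. The mOct4 clones, at 0.24 and 0.40, were as bright as the LcPOU5F3 clones or brighter, so Hoxb13 stood apart in LcPOU5F1 lines rather than in LcPOU5F3 lines.

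Hoxa7, a trunk gene, was measured in every clone, at -0.26 and 0.50 in LcPOU5F3 clones, -1.67 and -1.75 in LcPOU5F1 clones, and -0.45 and -1.37 in mOct4 clones. LcPOU5F3 was 3.56-fold above LcPOU5F1 (limma, adjusted p = 0.0352), while its 2.04-fold difference from mOct4 did not pass (limma, adjusted p = 0.118). Hoxc13, known from hair and nail, read -1.05 and -0.056 in LcPOU5F3 clones and -2.53 and -3.25 in LcPOU5F1 clones, of which clone 4 alone was measured. The fitted log2 difference in Hoxc13 was 2.34 (limma, adjusted p = 0.0312). Hoxc4, an anterior HoxC gene, read -2.98 and -1.86 in LcPOU5F3 clones, of which clone 2 alone was measured, and -5.01 and -4.71 in LcPOU5F1 clones. Its ratio was at least 1.09-fold (limma, adjusted p = 0.0193), so the bound allows almost no difference in Hoxc4. With a common floor Hoxa3, Hoxa7, Hoxb4, Hoxc4 and Hoxc13 did not pass in this comparison, with adjusted p-values from 0.0511 to 0.396 in limma.

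Hoxb13, Hoxc6, Hoxc9 and Hoxd8 kept their calls in this comparison whichever clone was left out. Without LcPOU5F1 clone 4, or without clone 5, only those 4 passed, and without mOct4 clone 1 or clone 2 they passed with Hoxb4. Without LcPOU5F3 clone 2, Hoxa7 and Hoxc13 were lost. Without LcPOU5F3 clone 1 the log2 differences of Hoxa4, Hoxa13, Hoxb6 and Hoxc12 were -0.80, -0.66, -1.01 and -0.995. With both clones they were -0.31, -0.10, -0.37 and -0.42. The fit with LcPOU5F3 clone 2 alone thus put these 4 genes further on the lower side in LcPOU5F3 lines. The array of the remaining LcPOU5F3 clone reached the lowest levels of the 6. Leaving out mOct4 clone 1 or mOct4 clone 2 gave the same fit in this comparison, so those are not separate checks.

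The third comparison set LcPOU5F1 lines against mOct4 lines. Of the 17 Hox genes, 1 was lower (Hoxb13), 0 were higher and 16 did not pass, with 3 at an unadjusted p under 0.05, 17.6% against 15.6% of all genes tested. Over all genes tested only 5 passed, 0.0343% in either direction and 0.0206% on the lower side. The median log2 difference was -0.18 over the Hox genes and 0.10 over all genes. Hoxb13, at the levels above, was at least 7.26-fold lower in LcPOU5F1 lines, a fitted log2 difference of -4.95 ± 0.21 (SE, n = 2 each; limma, adjusted p = 0.0272). With normexp the fitted ratio was 4.83-fold, and with a common floor it did not pass (limma, adjusted p = 0.0505). That call was lost when LcPOU5F1 clone 4, LcPOU5F1 clone 5, mOct4 clone 1 or mOct4 clone 2 was left out. Without LcPOU5F3 clone 1, or without clone 2, Hoxb13 and Hoxc4 passed, both lower.

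Hoxc4 and Hoxd8 were the other 2 genes with an unadjusted p under 0.05. Hoxc4 read -5.01 and -4.71 in LcPOU5F1 clones, measured in neither, against -2.60 and -2.43 in mOct4 clones, measured in both. The groups did not overlap, the adjusted p was 0.135 in limma, and the bound was 1.02-fold. Hoxd8 was measured in no clone of either group, so no ratio is given for it.

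**Figure D4:**
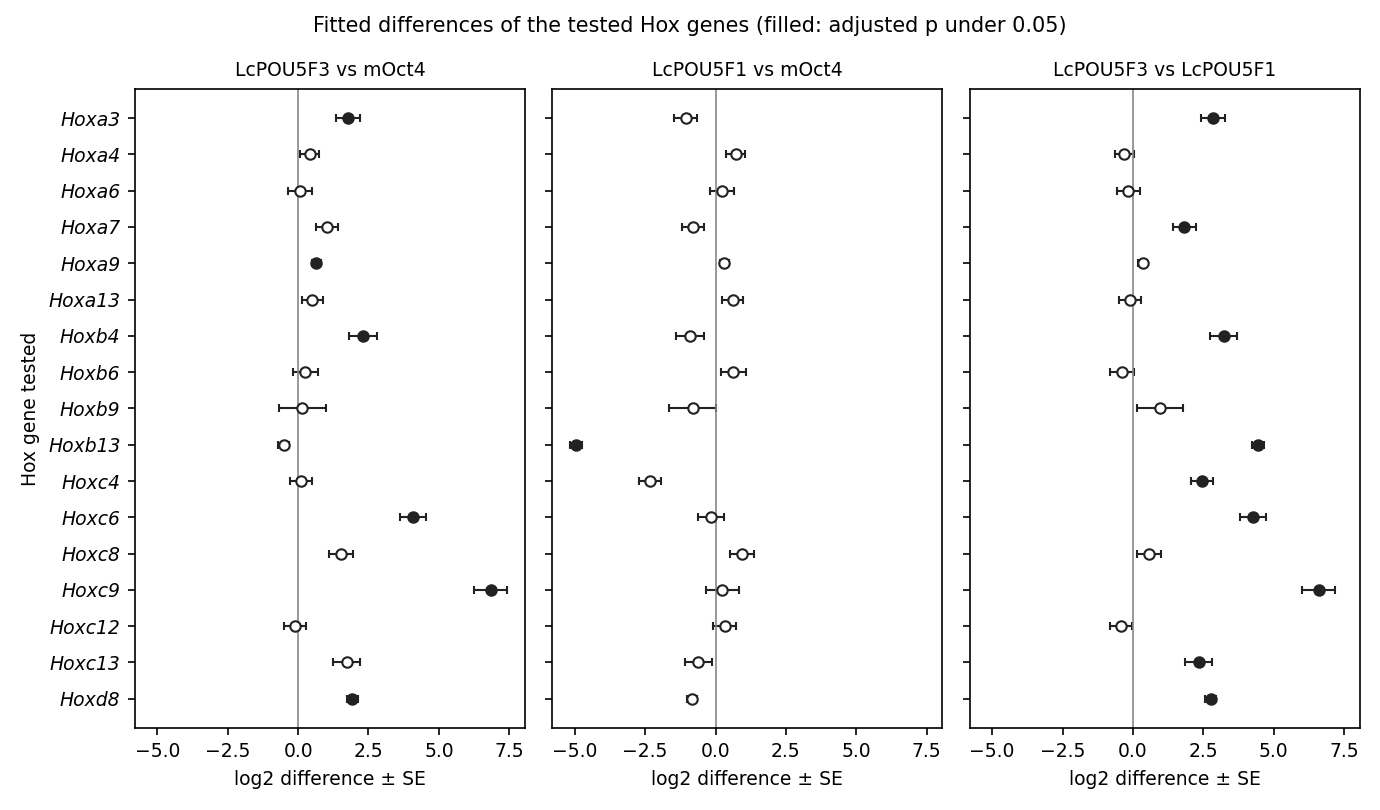
Fitted log2 difference ± SE (x axis) of the 17 tested Hox genes in each of the 3 comparisons, with filled points for adjusted p under 0.05. Differences against a group where a gene was not measured, such as Hoxc9 outside LcPOU5F3 lines, depend on unmeasured values and are given in the text as bounds; 6 points are filled in the first panel, 1 in the second and 9 in the third.

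The 7 other tested genes passed in none of the 3 comparisons. Hoxc8, next to Hoxc9, came nearest. It read -1.77 and -2.38 in LcPOU5F3 clones, -2.09 and -3.20 in LcPOU5F1 clones, and -3.53 and -3.65 in mOct4 clones, and its fitted log2 difference of 1.52 between LcPOU5F3 and mOct4, of which clone 1 alone was measured, had an adjusted p of 0.0563 in limma. Hoxb9, a posterior trunk gene, varied most between clones: -1.64 and 0.025 in LcPOU5F3 clones, -2.79 and -0.77 in LcPOU5F1 clones, and -0.97 and -0.96 in mOct4 clones. Clones of the same coelacanth protein thus differed more in Hoxb9 than the group means did.

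Hoxa4, an anterior gene of HoxA, read -1.64 and -2.62 in LcPOU5F3 clones, -1.76 and -1.89 in LcPOU5F1 clones, and -2.58 and -2.51 in mOct4 clones. The remaining 4, Hoxa6, Hoxa13, Hoxb6 and Hoxc12, lay between -3.75 and -2.22 in all clones, near the arrays' lowest measured levels. In each of these 4 genes LcPOU5F3 clone 1 read above LcPOU5F3 clone 2, and in each the sign of the difference from mOct4 lines depended on which LcPOU5F3 clone was used. A second probe for Hoxa13, below background on every array, gave a difference from mOct4 of the opposite sign.

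A further 7 genes were measured on some array but did not enter the test. Of these, 5 (Hoxa10, Hoxa11, Hoxb3, Hoxc10 and Hoxd9) were measured in LcPOU5F3 clone 2 alone. Hoxa11, needed for the forearm and uterus, read -3.53 and -1.67 in LcPOU5F3 clones, -4.81 and -4.50 in LcPOU5F1 clones, and -5.67 and -5.71 in mOct4 clones. Hoxa10, which works with it in the uterus, read -3.83 and -1.94 in LcPOU5F3 clones, -4.81 and -4.52 in LcPOU5F1 clones, and -5.98 and -5.72 in mOct4 clones. In both, LcPOU5F3 clone 2 was the only clone above every array's lowest measured level.

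Hoxc10, the next gene beyond Hoxc9 and used at lumbar levels, read -2.61 and -2.64 in LcPOU5F3 clones, -4.78 and -4.48 in LcPOU5F1 clones, and -4.39 and -4.35 in mOct4 clones. Hoxd9 read -2.82 and -2.64 in LcPOU5F3 clones, -4.90 and -4.51 in LcPOU5F1 clones, and -4.86 and -5.90 in mOct4 clones. The LcPOU5F3 clones read alike in these 2 genes, and LcPOU5F3 clone 1 missed the background test on an array with a higher lowest level. Hoxd4 was measured in LcPOU5F3 clone 2 and mOct4 clone 1, and Hoxd11 in mOct4 clone 2 alone.

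With no filter on dim probes, all 38 Hox genes could be tested among 20969 genes. In that fit 8 Hox genes were higher and 0 lower in LcPOU5F3 than in mOct4 lines. Over all genes 7.36% passed in either direction there, with 985 of the 20969 higher. Against LcPOU5F1 lines 8 Hox genes were higher and 0 lower in LcPOU5F3 lines. Over all genes 4.6% passed in either direction there, with 697 of the 20969 higher. Between LcPOU5F1 and mOct4 lines 0 passed among the 38 and 0% of all genes, with 5 Hox genes and 2336 genes at an unadjusted p under 0.05. Hoxc10 passed in both LcPOU5F3 comparisons. Hoxa5 and Hoxb8 were among those called against mOct4 although they were well above background on no array, so values under the background line alone can give a call.

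RefSeq promoter windows in the table used here were found for 22 of the 38 genes and for 6 of the 10 genes past the threshold in some comparison. Shown are the 250 bases before the start of Hoxa3, Hoxb4 and Hoxd8, the genes with a window that were higher in LcPOU5F3 lines in both comparisons, and of Hoxa7, the called gene whose window held a CDX-type motif. They are written 5′ to 3′ on the gene's own strand, with RefSeq coordinates on GRCm38.p6. Capitals mark every CpG and, in Hoxa7, both CDX-type motifs.
Hoxa3 (chr6:52213068-52213317, minus strand): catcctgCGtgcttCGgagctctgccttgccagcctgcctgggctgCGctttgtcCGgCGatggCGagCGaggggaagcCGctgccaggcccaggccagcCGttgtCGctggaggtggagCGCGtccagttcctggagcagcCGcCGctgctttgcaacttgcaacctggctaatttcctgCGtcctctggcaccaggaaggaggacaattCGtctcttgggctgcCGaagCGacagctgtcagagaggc
Hoxb4 (chr11:96318017-96318266, plus strand): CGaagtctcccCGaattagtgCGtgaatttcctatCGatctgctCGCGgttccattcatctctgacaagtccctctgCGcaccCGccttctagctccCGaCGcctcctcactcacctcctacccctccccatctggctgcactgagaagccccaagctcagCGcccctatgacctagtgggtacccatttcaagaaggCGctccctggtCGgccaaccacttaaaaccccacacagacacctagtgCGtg
Hoxd8 (chr2:74704365-74704614, plus strand): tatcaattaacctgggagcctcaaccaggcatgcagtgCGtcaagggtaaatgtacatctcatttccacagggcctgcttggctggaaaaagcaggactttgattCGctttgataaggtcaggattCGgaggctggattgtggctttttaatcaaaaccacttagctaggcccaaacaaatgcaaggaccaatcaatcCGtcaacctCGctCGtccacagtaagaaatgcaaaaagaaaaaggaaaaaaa
Hoxa7 (chr6:52218574-52218823, minus strand): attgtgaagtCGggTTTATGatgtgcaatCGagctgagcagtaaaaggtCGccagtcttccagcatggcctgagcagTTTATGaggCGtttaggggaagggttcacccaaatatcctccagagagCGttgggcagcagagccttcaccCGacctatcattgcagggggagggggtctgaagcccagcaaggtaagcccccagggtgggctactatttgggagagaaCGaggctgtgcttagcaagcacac

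Motifs were searched on both strands. The octamer ATGCAAAT is bound by POU factors, and the DR5 element by retinoic acid receptors. None of the 24 windows of these 22 genes held an exact octamer or DR5 element, which were present in 1.60% and 0.00913% of the 32851 windows in the table. The CDX-type motif TTTATG was present in 5 of the 24 windows, against 10.8% of all windows. The TATA-type motif was present in 4 of the 24 windows, against 12.4% of all windows. Hoxa7 had CDX-type motifs starting 236 and 173 bases before its start. Hoxa3 held 18 CpG, Hoxb4 14, Hoxa7 7 and Hoxd8 6, against a median of 12.5 over the Hox windows (2 to 35) and 6 over all windows. A match describes letters in a window and was not tested for binding.

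Genes around the clusters were read in the same way. The 5 nearest protein-coding genes on each side of the 4 clusters gave 40 genes, of which 36 were tested. Between LcPOU5F3 and mOct4 lines 1 was higher (Copz2, a coat protein subunit, beside HoxB) and 5 were lower (Snx10, Ttll6, Atp5g1, Skap1 and Nfe2), with a median log2 difference of -0.11. The 6 of 36 compare with 23.5% of all genes called. Between LcPOU5F3 and LcPOU5F1 lines 2 were higher (Copz2 and Calcoco2) and 4 lower (Snx10, Atp5g1, Nfe2 and Hnrnpa3), against 20.6% of all genes, with a median of -0.20. Between LcPOU5F1 and mOct4 lines 0 passed, with a median of 0.08.

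Nfe2, a blood transcription factor gene beside HoxC, went the other way from Hoxc9 and Hoxc6. It read -4.14 and -4.65 in LcPOU5F3 clones, measured in neither, -1.51 and -1.21 in LcPOU5F1 clones, and -1.63 and -1.51 in mOct4 clones. It was at least 2.97-fold lower in LcPOU5F3 than in mOct4 lines (limma, adjusted p = 0.00572). Copz2 read -0.98 and -0.96 in LcPOU5F3 clones, -3.09 and -3.30 in LcPOU5F1 clones, and -2.61 and -2.77 in mOct4 clones, a 3.30-fold difference from mOct4 (limma, adjusted p = 0.00631).

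Among transcripts within or at the ends of the clusters, the antisense transcript Hoxa11os read -1.39 and -0.56 in LcPOU5F3 clones, -2.11 and -2.24 in LcPOU5F1 clones, and -2.46 and -2.50 in mOct4 clones. It was higher in LcPOU5F3 lines than in mOct4 lines, 2.84-fold (limma, adjusted p = 0.0246), and than in LcPOU5F1 lines, of which clone 4 alone was measured (limma, adjusted p = 0.0452). In the same clones its sense partner Hoxa11 was measured in LcPOU5F3 clone 2 alone. The even-skipped genes Evx1 and Evx2, which close the HoxA and HoxD clusters, passed in none of the comparisons. Evx1 read -0.86 and -0.46 in LcPOU5F3 clones, 0.16 and -2.33 in LcPOU5F1 clones, and -1.82 and -2.01 in mOct4 clones, with LcPOU5F1 clones 4 and 5 the farthest apart.

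Hox proteins bind DNA with TALE cofactors of the Pbx and Meis families, and CDX factors act upstream of the clusters. From these lists and those below, up to 4 genes with the smallest p were to be named, and the other genes past the threshold are named because they passed. Counts in these lists stand against 23.5% of all genes called between LcPOU5F3 and mOct4 lines and 20.6% between LcPOU5F3 and LcPOU5F1 lines, and nothing particular to a list is read from them. Of 11 TALE genes tested, 3 were higher (Meis1, Meis2 and Pbx2) and 1 lower (Tgif1) in LcPOU5F3 than in mOct4 lines, and 2 were higher (Meis2 and Pbx3) and 1 lower (Tgif1) than in LcPOU5F1 lines. Meis2 read -0.40 and 1.37 in LcPOU5F3 clones, -4.69 and -4.45 in LcPOU5F1 clones, and -3.51 and -4.06 in mOct4 clones. It was higher than in mOct4 lines, of which clone 1 alone was measured, by a fitted log2 difference of 4.27 (limma, adjusted p = 0.0129), and at least 8.15-fold higher than in LcPOU5F1 lines (limma, adjusted p = 0.0103).

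Meis1, which works beside Hoxa9 in blood cells, read 2.40 and 2.24 in LcPOU5F3 clones, 1.89 and 2.07 in LcPOU5F1 clones, and -0.78 and -1.79 in mOct4 clones. It was 12.2-fold above mOct4 (limma, adjusted p = 0.00678), while its difference from LcPOU5F1 did not pass (limma, adjusted p = 0.492). Of 3 genes tested among Cdx and ParaHox genes, Cdx2, also a trophectoderm gene, was higher in LcPOU5F3 lines in both comparisons. It read 3.10 and 3.40 in LcPOU5F3 clones, -2.25 and -4.68 in LcPOU5F1 clones, and -0.55 and -0.61 in mOct4 clones, 14.2-fold above mOct4 (limma, adjusted p = 0.0275) and also above LcPOU5F1, where clone 4 alone was measured and no fold is given (limma, adjusted p = 0.00996). Cdx1 lay between -0.071 and 1.20 over the 6 clones and passed in none of the comparisons.

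Polycomb complexes keep Hox clusters silent, by methylating histone H3 (complex PRC2) and by ubiquitinating and compacting chromatin (complex PRC1). Of 26 genes tested, 3 were higher (Cbx8, Phc2 and Yaf2) and 6 lower (Eed, Jarid2, Mtf2, Phf19, Pcgf2 and Phc1) in LcPOU5F3 than in mOct4 lines, with a median log2 difference of -0.32. The PRC2 genes that passed, the core subunit Eed and the accessory subunits Jarid2, Mtf2 and Phf19, were all lower. Eed read 5.03 and 5.06 in LcPOU5F3 clones, against 5.84 and 5.84 in mOct4 clones, 1.74-fold lower (limma, adjusted p = 0.0241). Jarid2 was 2.45-fold lower (limma, adjusted p = 0.0205).

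The PRC1 genes went both ways. Cbx8, a reader of the PRC2 mark, read -1.64 and -1.02 in LcPOU5F3 clones, -4.78 and -4.48 in LcPOU5F1 clones, and -3.70 and -3.90 in mOct4 clones, at least 4.98-fold above mOct4 (limma, adjusted p = 0.00774). It was at least 2.32-fold above LcPOU5F1 (limma, adjusted p = 0.00552). Against LcPOU5F1 lines 1 of the 26 was higher in LcPOU5F3 lines (Cbx8) and 5 were lower (Eed, Jarid2, Mtf2, Pcgf2 and Phc1).

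Trithorax complexes oppose Polycomb by methylating another site of histone H3, and Kdm6b removes the PRC2 mark. Of 11 genes tested, Kdm6b was higher and 5 were lower (Ash2l, Wdr5, Rbbp5, Dpy30 and Kmt2c) in LcPOU5F3 than in mOct4 lines, and Wdr5 alone passed against LcPOU5F1, lower. Kdm6b read 1.67 and 2.00 in LcPOU5F3 clones, against 0.80 and 0.61 in mOct4 clones, 2.19-fold higher (limma, adjusted p = 0.0162). Ash2l, Wdr5, Rbbp5 and Dpy30, the shared core of the methyltransferase complexes, were 1.51-fold to 2.00-fold lower.

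Of 15 retinoic acid genes, Dhrs3 and Rdh10, enzymes at the retinol step, were higher and Stra8 and Crabp1 lower in LcPOU5F3 than in mOct4 lines. Against LcPOU5F1 lines, Rdh10 and Cyp26a1, which degrades retinoic acid, were higher and the receptor gene Rara lower. Rdh10 read -0.78 and -0.16 in LcPOU5F3 clones, -2.90 and -2.45 in LcPOU5F1 clones, and -2.73 and -2.76 in mOct4 clones, 4.85-fold above mOct4 (limma, adjusted p = 0.00983). Stra8, a retinoic acid responsive germ cell gene, read -3.12 and -3.88 in LcPOU5F3 clones, -0.39 and -2.66 in LcPOU5F1 clones, and 3.34 and 3.72 in mOct4 clones. It was lower in LcPOU5F3 than in mOct4 lines (limma, adjusted p = 0.00832), and with LcPOU5F3 clone 2 alone measured no fold is given. The LcPOU5F1 clones also read below both mOct4 clones, a fitted log2 difference of -5.05 that did not pass (limma, adjusted p = 0.1245). The lower Stra8 level was thus not particular to LcPOU5F3 lines. Of 6 other regulators tested, Gdf11, a signal for the trunk-to-tail switch, was higher in LcPOU5F3 than in mOct4 lines and Rad21, a cohesin subunit, lower than in LcPOU5F1 lines. None of these lists had a gene past the threshold between LcPOU5F1 and mOct4 lines, where only 5 of all genes tested passed. Not passing there does not mean equal levels. Meis1, Pbx2, Gdf11, Kdm6b and Dhrs3 were 9.60-fold, 1.66-fold, 2.25-fold, 1.44-fold and 2.25-fold above mOct4 in LcPOU5F1 lines too. Ash2l, Rbbp5, Kmt2c, Crabp1 and Phf19 were 1.51-fold, 1.38-fold, 1.49-fold, 2.17-fold and 1.80-fold below mOct4 there. Eed, Jarid2, Phc1 and Tgif1, lower in LcPOU5F3 lines, read above mOct4 in LcPOU5F1 lines. Cyp26a1 was at least 2.03-fold below mOct4 in LcPOU5F1 lines, while its log2 difference between LcPOU5F3 and mOct4 lines was 0.12. Cdx2, also higher in LcPOU5F3 lines, read below mOct4 in LcPOU5F1 lines, where clone 4 alone was measured. Meis2 was measured in no LcPOU5F1 clone and Cbx8 in no clone of either group. No direction between LcPOU5F1 and mOct4 is read for Meis2 or Cbx8.

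**Figure D5:**
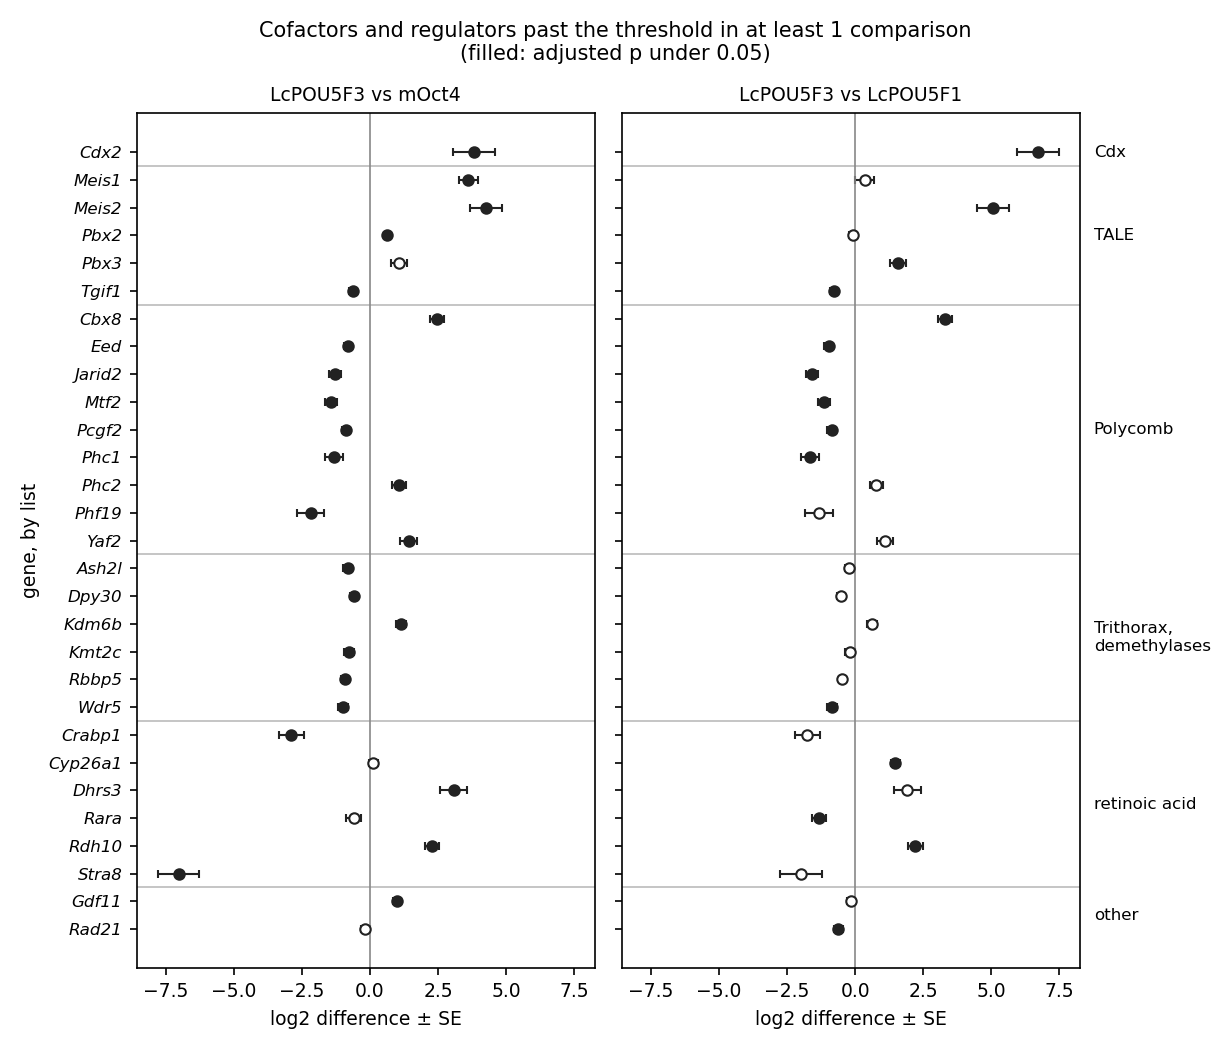
Fitted log2 difference ± SE (x axis) of the cofactor and regulator genes past the threshold in at least 1 comparison, for LcPOU5F3 against mOct4 (left) and against LcPOU5F1 (right). Filled points have an adjusted p under 0.05; Cdx2 and Meis2 lie to the right in both panels, and Eed, Jarid2 and Mtf2 to the left.

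Marker genes of other cell types moved with the LcPOU5F3 lines. Of 10 embryonic stem cell markers, 8 were lower in LcPOU5F3 than in mOct4 lines (Nanog, Sox2, Klf4, Esrrb, Zfp42, Tdgf1, Fbxo15 and Utf1), and the log2 of the summed level of the whole list was 8.72 and 8.19 in LcPOU5F3 clones, 9.53 and 9.65 in LcPOU5F1 clones, and 9.64 and 9.81 in mOct4 clones. Of 9 trophectoderm markers tested, 6 were higher (Krt7, Krt8, Krt18, Krt19, Gata3 and Cdx2) and Eomes lower. Eomes read 0.28 and -0.73 in LcPOU5F3 clones, -0.53 and -0.89 in LcPOU5F1 clones, and 1.57 and 2.02 in mOct4 clones. Its lower level was thus not particular to LcPOU5F3 lines. The log2 summed level of the whole list of 10 was 9.03 and 9.10 in LcPOU5F3 clones, 5.02 and 4.56 in LcPOU5F1 clones, and 5.15 and 5.17 in mOct4 clones, with Elf5 measured on no array.

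Of 7 fibroblast and mesenchyme markers tested, 3 were higher (Tagln, Acta2 and Thy1) and Pdgfrb lower. The log2 summed level of the whole list of 10 was 5.05 and 6.20 in LcPOU5F3 clones, 1.09 and 1.09 in LcPOU5F1 clones, and 1.76 and 1.64 in mOct4 clones, with Pdgfra and Prrx1 measured on no array. Tagln alone read 4.74 and 5.85 in LcPOU5F3 clones, so it made up most of their sums. The collagen genes Col1a1, Col1a2 and Col3a1 passed in neither LcPOU5F3 comparison, and Col1a1 was measured in no LcPOU5F3 clone. The median log2 difference of this list was 0.72 against mOct4 lines and 0.050 against LcPOU5F1 lines. Lamb1 and Dab2 were higher among 5 primitive endoderm markers tested. None of 4 primitive streak and posterior mesoderm markers passed against mOct4, and T, Mixl1 and Mesp1, which define the streak, were measured on no array. Of 5 neuroectoderm markers, Pax3 was higher and Pax6 and Zic1 lower, with Neurog2 measured on no array. Between LcPOU5F3 and LcPOU5F1 lines, 7 embryonic stem cell markers were lower (all of the 8 above but Utf1). Higher were 7 trophectoderm markers (the 6 above and Hand1), Tagln, Acta2, Thy1, Lamb1, Dab2 and Pax3, and lower were Pax6 and Zic1. Hand1, also on the primitive streak and posterior mesoderm list, was its only gene past the threshold there. The part of these marker changes in the Hox levels was not tested.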

How the data were processed

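RNA of 6 clones, 2 for each of LcPOU5F3, LcPOU5F1 and mOct4, was hybridised to 1-colour Agilent arrays. Per the file headers, the authors extracted spot intensity with Agilent Feature Extraction 11.0.1.1; the processed intensity is linear and background-subtracted and was not scaled across arrays. The deposited value table gives this intensity in rounded form and served as an alternative. The design file named in the headers is of build mm9, so no array coordinates are given. Names came from RefSeq GRCm38.p6 accessions, which left 50.3% of 55681 probes unnamed.

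Log2 signals were centred on each array's 75th percentile. Control spots and outliers were dropped and repeat spots averaged. A probe was kept (30944 were) if both arrays of some group had it well above background, and the kept probe with the highest mean stood for a gene. In limma 3.58.1 (R 4.3.3) a mean per group was fitted over the 6 arrays (3 residual degrees of freedom, 5.16 after moderation) and adjusted by Benjamini-Hochberg over 14590 genes, called under 0.05. The fit was tested on simulated data. The number of arrays limits the precision. All tested Hox genes are named, and of other lists up to 4 genes with the smallest p.

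The Hox genes and all lists were chosen with earlier results of these data known. 1 gene of these lists is not reported here. The files hold median rather than mean spot signals, so the normexp alternative (offset 50) used the median. Same-numbered clones were not paired: their deviations from the group means correlated at -0.096. Probe sequences were not used here, and where RefSeq transcripts overlap (Hoxa3 with Hoxa4, Hoxa5 and Hoxa6, Hoxb3 with Hoxb4, Hoxd3 with Hoxd4, Hoxd10 with Hoxd11, Hoxa11 with Hoxa11os, and Hoxc9, Hoxd8, Hoxc4 and Hoxa3 with long noncoding RNAs) a probe may read both. Alternatives covered background correction, scaling, filters, probe choice, trend, weights, slide, replicate block, threshold and left-out clones.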

Additional observations from a re-analysis of the deposited data

How the results depend on the processing

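Counts are of Hox genes past the threshold, then of all genes. LcPOU5F3 against mOct4 gave 6 and 3435, and the counts differed by over 1.5 times as follows: 0 (1 at an unadjusted p under 0.05 in limma) with probes well above background on all arrays, where Hoxa4 and Hoxa7 alone remain; 1 and 46 with slide as a block; 3 and 527 at an adjusted p under 0.01; 5324 genes under 0.10; 1544 with no filter; 2206 with only the 4 arrays. With the clone number as a replicate block, 0 and 0 passed in limma (8 and 4399 unadjusted), Hoxc9 at an adjusted p of 0.0588. LcPOU5F1 against mOct4 gave 1 and 5: 3 and 748 with median centring, 2 and 503 with a variance weight per group, 2 and 529 with only the 4 arrays, 0 and 22 with a common floor, and 13 genes with normexp, 108 with quantile normalization, 8 with every kept probe, 29 with an intensity trend and 42 at an adjusted p under 0.10. In limma 0 and 0 passed with no filter (5 and 2336 unadjusted), with all-array detection (0 and 1928), with slide (4 and 823) and under 0.01 (3 and 2279). LcPOU5F3 against LcPOU5F1 gave 9 and 3007: 5 Hox genes with a common floor, 1 with all-array detection, 5 and 496 with slide or with only the 4 arrays, 4 and 431 under 0.01, 4983 genes under 0.10, 965 with no filter and 1645 with variance weights. Leaving out 1 clone gave 1 to 7 and 36 to 5069 for LcPOU5F3 against mOct4, 0 to 2 and 0 to 529 for LcPOU5F1 against mOct4, and 4 to 13 and 447 to 5851 for LcPOU5F3 against LcPOU5F1.

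Called Hox genes changed sign under no alternative. Left-out clones aside, Hoxb13, Hoxc6, Hoxc9 and Hoxd8 passed between LcPOU5F3 and LcPOU5F1 in all 13 alternatives run for them. Hoxa9 against mOct4 passed in 5 of 14. These alternatives are not all separate checks: between LcPOU5F3 and LcPOU5F1, slide as a block and only the 4 arrays gave the same calls. With detection on all arrays Hoxb13, Hoxc6, Hoxc9 and Hoxd8 could not be tested. Differences that passed in neither setting changed sign 46 times, over 11 genes. For LcPOU5F3 against mOct4 these log2 differences were -0.053 for Hoxa6 and -0.013 for Hoxb6 with normexp, and -0.0027 for Hoxa6 with a common floor. For LcPOU5F1 against mOct4 they were 0.16 for Hoxc6, -0.61 for Hoxc9 and 0.012 for Hoxd8 with normexp, and -0.65 for Hoxc9 with slide. Quantile normalization gave -0.12 for Hoxa6, -0.010 for Hoxa9, -0.55 for Hoxc9 and -0.061 for Hoxc12, and median centring -0.14, -0.060, -0.14 and -0.052 for the same 4. For LcPOU5F3 against LcPOU5F1, quantile normalization gave 0.0044 for Hoxa4, 0.22 for Hoxa6, 0.34 for Hoxa13, 0.059 for Hoxb6 and 0.020 for Hoxc12. Median centring gave 0.099 for Hoxa4, 0.25 for Hoxa6, 0.30 for Hoxa13 and 0.030 for Hoxb6, and a common floor 0.038 for Hoxa13 and 0.045 for Hoxb6.

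With 1 clone left out, log2 differences between LcPOU5F3 and mOct4 ran from -0.075 to 0.90 for Hoxa4, -0.37 to 0.51 for Hoxa6, -0.051 to 1.07 for Hoxa13, -0.38 to 0.90 for Hoxb6, -0.68 to 0.99 for Hoxb9, -0.47 to 0.66 for Hoxc4 and -0.68 to 0.48 for Hoxc12. Between LcPOU5F1 and mOct4 they ran from -0.21 to 0.67 for Hoxa6, -1.82 to 0.19 for Hoxb9, -0.81 to 0.46 for Hoxc6 and -0.65 to 1.12 for Hoxc9. Between LcPOU5F3 and LcPOU5F1 they ran from -0.80 to 0.18 for Hoxa4, -0.51 to 0.19 for Hoxa6, -0.66 to 0.46 for Hoxa13, -1.01 to 0.27 for Hoxb6, -0.041 to 1.98 for Hoxb9 and -0.995 to 0.16 for Hoxc12.

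Under median centring limma's degrees of freedom after moderation were 1626, against 5.16 otherwise reported, so nearly 1 variance was used for all genes and its counts are not like the others. Median centring moved the all-gene median by -0.37 for LcPOU5F1 against mOct4 and by 0.40 for LcPOU5F3 against LcPOU5F1, where quantile normalization moved it by 0.15 and a common floor by 0.12. All-gene calls for LcPOU5F1 against mOct4 were 2 higher and 3 lower, 47 and 701 with median centring, 7 and 101 with quantile normalization, 2 and 11 with normexp and 5 and 17 with a common floor. For LcPOU5F3 against LcPOU5F1 they were 48.5% higher, against 78.7% with median centring. The cause of these changes was not tested. Most Hox signals lay near each array's background, which limits every difference of dim genes to a bound.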
